A study of Homo sapiens with 6 samples.

Results

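The genes described here are those of mitochondrial and peroxisomal fatty acid oxidation, 35 of the 22258 gene symbols with values in the deposited expression table. They were chosen by name, as the carnitine shuttle, the acyl-CoA dehydrogenases, the electron transfer flavoprotein, the core and auxiliary enzymes of the spiral, the peroxisomal enzymes and a mitochondrial thioesterase. All 35 were listed, and all 35 passed the filter on low values. The samples were 3 of SW480 cells labelled ALDH1B1 knockdown and 3 labelled as controls, each numbered 4, 5 and 6. SW480 is a human colon cancer cell line, ALDH1B1 is a mitochondrial aldehyde dehydrogenase, and no treatment was given to either group. The control samples are titled SCR and carry the genotype label WT. How the knockdown was made, and from how many clones, is not stated in the sources used here. Whether the samples of a group came from separate cultures is not stated, so each p-value speaks only of the spread among these 6 samples, which may be technical.

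Fatty acids enter mitochondria as acyl-carnitines, through carnitine palmitoyltransferases on the outer and inner membranes. Inside, each turn of beta-oxidation runs through an acyl-CoA dehydrogenase, a hydratase, a hydroxyacyl-CoA dehydrogenase and a thiolase, and the electrons of the first step leave through the electron transfer flavoprotein. Peroxisomes run a parallel spiral, started by acyl-CoA oxidases, that shortens very long and branched chains and hands the products to mitochondria as carnitine esters. Colon epithelial cells use short-chain fatty acids made by gut bacteria as fuel through mitochondrial beta-oxidation.

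Among these genes the knockdown samples had more mRNA for the muscle-type carnitine palmitoyltransferase CPT1B, the carnitine acyltransferases CROT and CRAT, the dehydrogenase ACAD10, the flavoprotein subunit ETFB and the peroxisomal thiolase ACAA1. They had less mRNA for ECI1, an isomerase needed for unsaturated chains, and for ACAD9, a dehydrogenase relative that serves in complex I assembly. In all, 10 of the 35 rose, which is 28.6% against 22.6% of all 15496 genes tested. Only EHHADH joined ECI1 and ACAD9 among the genes that fell, so that 3 of 35 fell, which is 8.57% against 19.2% of all genes tested. The 13 that changed were 37.1% of the 35, against 41.8% of all genes tested, and the other 22 did not pass the test. The median log2 fold change came to 0.12 over the 35 and 0.00 over all genes tested. Levels of the samples did not overlap between groups for 19 of the 35, which is 54.3%, against 51.0% of all genes tested. A gene was called changed at a limma adjusted p below 0.05, by the Benjamini-Hochberg method across the 15496 genes.

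**Figure D1:**
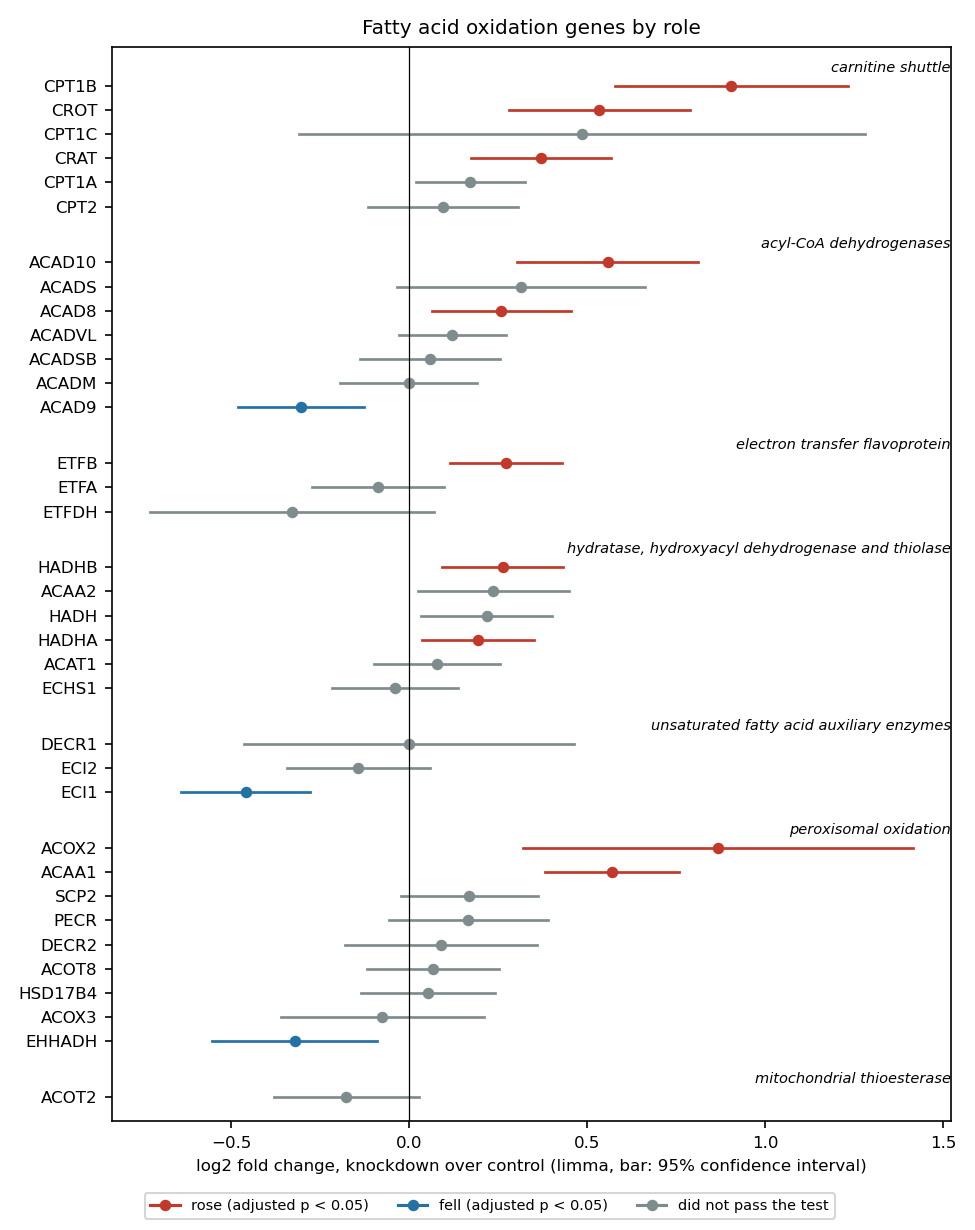
Log2 fold change of the 35 fatty acid oxidation genes, knockdown over control, grouped by role; points are limma estimates from 3 samples per group and bars their 95% confidence intervals. The carnitine shuttle genes all lie to the right of 0, from 0.10 for CPT2 to 0.91 for CPT1B, and the unsaturated fatty acid enzymes lie at or left of 0, down to -0.46 for ECI1.

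The upstream sequences of 4 of these genes are shown. HADHA and HADHB start from 1 shared stretch, and whether that stretch bears on their levels was not tested. The median log2 fold change of their chromosomal neighbours, 0.50, was above that of either gene, and both were lower relative to those neighbours (-0.30 and -0.23). ACAD10 and ECI1 had the largest rise and the largest fall among the genes with a promoter entry. RefSeq (GRCh38.p14) held a promoter entry for 27 of the 35, of which 9 had several and the first was used. Each sequence is the 250 bases before the gene's start, written 5′ to 3′ on the gene's own strand, with matches to the motifs searched in capitals. The windows are chr2:26244633-26244882 on the minus strand for HADHA, chr2:26244689-26244938 on the plus strand for HADHB, chr12:111685803-111686052 on the plus strand for ACAD10 and chr16:2251588-2251837 on the minus strand for ECI1.
HADHA: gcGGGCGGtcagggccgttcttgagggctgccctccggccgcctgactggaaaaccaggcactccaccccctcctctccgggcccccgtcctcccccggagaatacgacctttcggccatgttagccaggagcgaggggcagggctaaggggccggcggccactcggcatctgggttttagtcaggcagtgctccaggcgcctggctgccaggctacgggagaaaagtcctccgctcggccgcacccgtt
HADHB: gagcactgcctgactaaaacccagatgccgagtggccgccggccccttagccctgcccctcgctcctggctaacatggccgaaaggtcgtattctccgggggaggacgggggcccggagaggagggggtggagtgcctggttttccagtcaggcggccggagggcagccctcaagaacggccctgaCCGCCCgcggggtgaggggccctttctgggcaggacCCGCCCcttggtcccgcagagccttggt
ACAD10: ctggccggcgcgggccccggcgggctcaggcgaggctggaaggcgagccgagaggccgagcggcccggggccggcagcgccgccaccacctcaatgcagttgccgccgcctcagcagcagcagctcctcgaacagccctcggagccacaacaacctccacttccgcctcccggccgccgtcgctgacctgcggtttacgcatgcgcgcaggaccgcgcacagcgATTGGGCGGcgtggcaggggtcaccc
ECI1: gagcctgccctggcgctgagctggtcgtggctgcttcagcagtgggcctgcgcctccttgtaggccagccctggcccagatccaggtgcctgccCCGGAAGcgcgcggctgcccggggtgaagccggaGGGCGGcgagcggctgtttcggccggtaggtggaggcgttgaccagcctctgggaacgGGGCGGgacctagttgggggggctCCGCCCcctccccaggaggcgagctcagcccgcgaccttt

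HADHA and HADHB encode the alpha and beta subunits of the mitochondrial trifunctional protein and lie head to head, with 306 bases between their starts in RefSeq. Their windows shared 194 bases, which read as reverse complements of each other. In the windows above, the capitals mark the GC box GGGCGG in either direction (1 in HADHA, 2 in HADHB, 1 in ACAD10 and 3 in ECI1). The box of HADHA and the first box of HADHB are the same site, within the shared bases, and it is counted for both genes. The capitals also mark 1 ETS core, CCGGAAG, in ECI1 and 1 CCAAT box, read from the other strand, that overlaps the GC box of ACAD10. Both strands were searched. The 35116 windows of the background, unlike the 27, were not limited to 1 per gene or to genes tested here. The shares are therefore not like for like, and no enrichment was tested. A GC box was found in 22 of the 27 windows (81.5%), against 42.6% of the 35116 windows in the table. CCAAT was found in 8 of the 27 (29.6%), against 32.0% of all windows. The ETS core was found in 3 (CPT2, ECI1 and ACOT8; 11.1% against 8.52%), the E-box CACGTG in 2 (PECR and ACAD9; 7.41% against 6.34%) and the cyclic AMP element TGACGTCA in 2 (ACAD9 and ACOX3; 7.41% against 1.65%). The NRF1 core, GCGC and GCGC separated by 2 bases of any kind, was found in ACAD9 alone (3.70% against 7.16%). Neither AGGTCA repeated after 1 base, the element of PPAR receptors (0.0171% of all windows), nor the estrogen-related receptor element TCAAGGTCA (0.319%) was found in these 27 windows. Both elements are so rare among all windows that neither was likely to appear in 27, so their absence carries no weight. A match is an exact string of letters and not a bound site, and the search covered these windows alone.

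Depth was about 20360000 to 26160000 reads in the knockdown samples and 21090000 to 28580000 in the control samples. Values are in RPM, reads per 1000000 of that depth, and 3 reads, taken as the floor, correspond to 0.105 to 0.147 RPM. Listed genes held 67.2% to 70.7% of the depth in the knockdown samples and 65.1% to 71.1% in the control samples, lowest in control replicate 6. ALDH1B1 stood at 19.99, 20.4 and 23.2 RPM in the knockdown samples, against 34.1, 39.6 and 36.7 RPM in the control samples, each in the order 4, 5 and 6. Its mean was 21.2 ± 1.74 RPM in knockdown and 36.8 ± 2.76 RPM in control (SD, n = 3 each), or 57.6% of control, with a log2 fold change of -0.80 (SE 0.0926, limma adjusted p = 2.37e-07). A permutation of its 6 values, exact and two-sided, gave p = 0.1, the smallest it can give. Of 12 colon epithelium markers 9 were listed, and they summed to 5830 to 6142 RPM in knockdown and 5433 to 5689 RPM in control. KRT8, KRT18 and KRT19 made up most of these sums and did not pass the test, while KRT20 and LGALS4 were near the floor and not tested. The other 4 changed, and are named after their values were seen. EPCAM stood at 187% of control (206 RPM in knockdown and 110.4 RPM in control), VIL1 at 372% and CDH1 at 390%, and all 3 rose, while CDX2 fell to 59.2% of control. Fibroblast markers summed to 5.27 to 6.92 RPM in knockdown and 4.08 to 5.70 RPM in control, and leukocyte markers to 1.43 to 2.15 RPM in knockdown and 2.14 to 3.01 RPM in control. Among the leukocyte markers CD68 fell, to 0.311 RPM in knockdown, against 1.17 RPM in control. Endothelium and adipocyte markers each stayed under 1 RPM in every sample. Of the hepatocyte markers only SERPINA1 was listed, at 122.4 to 161.0 RPM in knockdown and 65.3 to 93.1 RPM in control. Whether these markers bear on the results was not tested. mRNAs of the mitochondrial genome held 6.34% to 6.43% of the depth in knockdown and 3.60% to 4.31% in control. When values were scaled to nuclear genes alone, 15 of the 35 genes described here rose (42.9%, against 29.3% of all genes tested) and 3 fell (8.57%, against 18.5%), and the median of all genes tested moved to 0.05. Since these are bulk samples, fewer expressing cells and less RNA per cell cannot be told apart.

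Of the 6 carnitine shuttle genes 3 rose (50%, against 22.6% of all genes tested) and none fell (against 19.2%). All 6 had estimates above 0, as did 7759 of the 15496 genes tested. The median log2 fold change of the 6 was 0.43. CPT1B, the outer membrane palmitoyltransferase of muscle, stood at 8.08, 9.48 and 9.84 RPM in the knockdown samples, against 6.56, 4.52 and 3.87 RPM in the control samples. Every knockdown sample lay above every control sample. The means were 9.13 ± 0.930 RPM in knockdown and 4.98 ± 1.40 RPM in control (SD, n = 3 each), giving a log2 fold change of 0.91 (SE 0.159, limma adjusted p = 6.68e-05). CPT1B lies on chromosome 22 from 51007290 to 51017900 in the table's own coordinates. On the same strand it overlaps CHKB, a choline kinase gene, and the readthrough locus CHKB-CPT1B, and both of those rose too, with log2 fold changes of 0.55 and 0.88 (limma adjusted p = 0.000612 and 0.00416). How the authors shared reads between these 3 loci is not stated in the sources used here, so the value of CPT1B alone is uncertain.

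CROT, the octanoyltransferase that turns shortened acyl-CoA from peroxisomes into carnitine esters, stood at 12.3, 12.4 and 11.2 RPM in knockdown, against 8.68, 9.39 and 6.97 RPM in control. The groups did not overlap, and the log2 fold change came to 0.53 (SE 0.123, limma adjusted p = 0.00113). CRAT, which moves acetyl and other short acyl groups between CoA and carnitine, stood at 31.5, 32.0 and 34.5 RPM in knockdown, against 26.1, 28.1 and 21.9 RPM in control. Control replicate 6 was the lowest of the 6 samples for both CROT and CRAT. For CRAT the log2 fold change came to 0.37 (SE 0.0959, limma adjusted p = 0.00303).

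The other 3 shuttle genes did not pass the test. CPT1A, the liver-type isoform that controls the rate of entry in most tissues and is inhibited by malonyl-CoA, stood at 92.3, 92.0 and 88.9 RPM in knockdown, against 85.0, 79.2 and 78.5 RPM in control. Its groups did not overlap, but the log2 fold change of 0.17 (95% confidence interval 0.02 to 0.33) had a limma adjusted p of 0.0667. CPT2, which rebuilds acyl-CoA on the inner membrane, stood at 19.9, 21.3 and 22.2 RPM in knockdown, against 20.5, 22.1 and 17.1 RPM in control, with overlapping groups. The brain isoform CPT1C was near the limit of detection, at 9 to 22 reads per sample, and its interval of -0.31 to 1.28 on the log2 scale is wide. Per kilobase of the longest coding transcript in GENCODE 29, CPT1A had the highest level of the 3 CPT1 isoforms in both groups. It had 17.4 ± 0.354 RPM per kilobase in knockdown and 15.5 ± 0.679 in control, against 3.43 ± 0.349 in knockdown and 1.87 ± 0.527 in control for CPT1B (SD, n = 3 each).

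**Figure D2:**
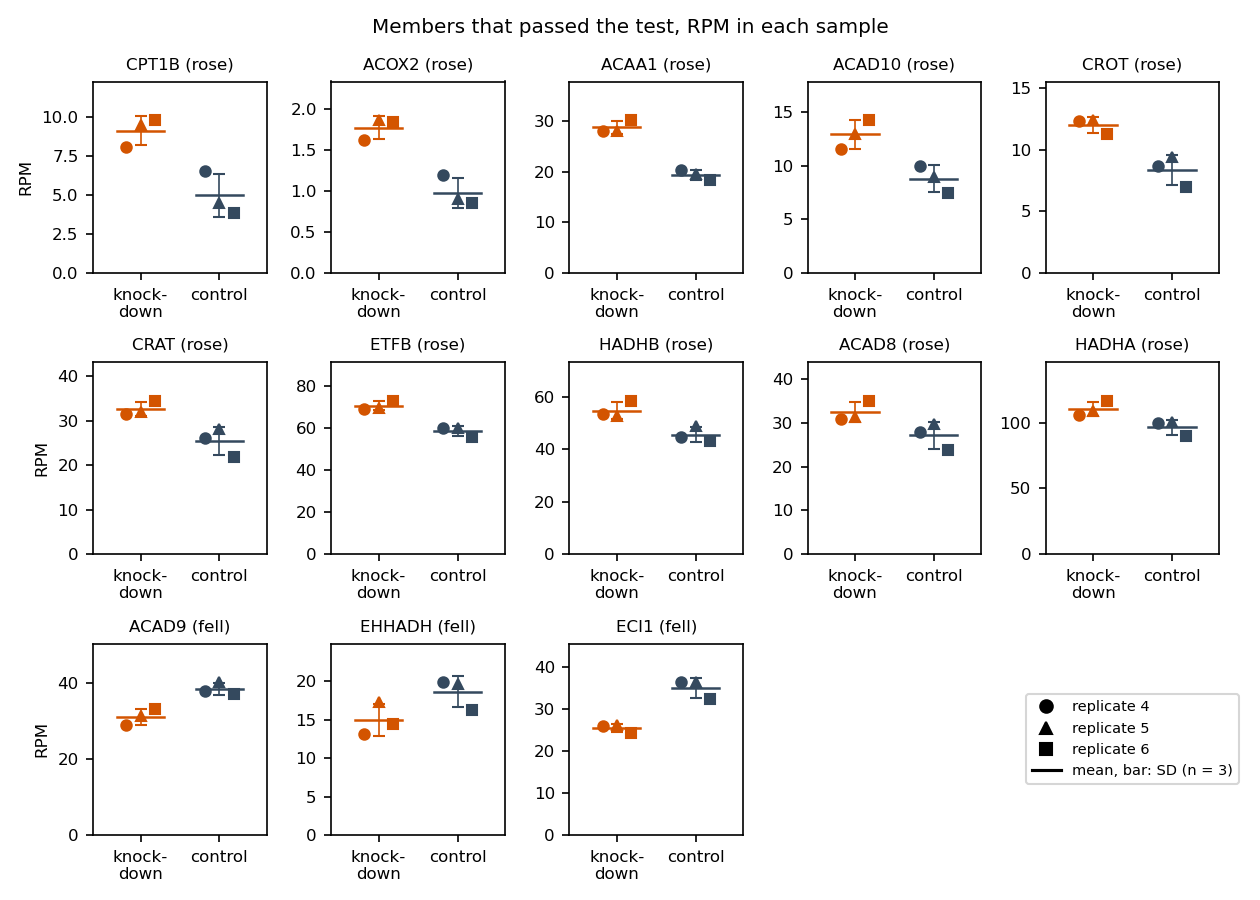
RPM of the 13 fatty acid oxidation genes that changed, with 1 panel per gene, an axis from 0 and knockdown left of control; each marker is a sample (circle 4, triangle 5, square 6), the line is the mean and the bar the SD of 3 samples. The groups are separate in every panel but EHHADH, where knockdown replicate 5 at 17.3 RPM lies above control replicate 6 at 16.3 RPM.

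The acyl-CoA dehydrogenases take the first step, each for its own chain length, and some serve amino acid breakdown instead. Of the 7, 2 rose (28.6%) and 1 fell (14.3%), against 22.6% and 19.2% of all genes tested. ACAD10, a less studied member of the family, stood at 11.5, 12.9 and 14.3 RPM in knockdown, against 9.94, 8.96 and 7.48 RPM in control. All 3 knockdown samples were above all 3 control samples, and the log2 fold change came to 0.56 (SE 0.124, limma adjusted p = 0.000777). ACAD8, the isobutyryl-CoA dehydrogenase of valine breakdown, stood at 30.9, 31.4 and 35.1 RPM in knockdown, against 28.0, 29.7 and 23.8 RPM in control. Its rise was smaller, with a log2 fold change of 0.26 (SE 0.095, limma adjusted p = 0.0306), and the call was lost when knockdown replicate 5, knockdown replicate 6 or control replicate 6 was left out. ACAD9 went the other way, at 29.1, 31.3 and 33.4 RPM in knockdown, against 37.9, 40.4 and 37.3 RPM in control. The groups were clearly apart, with a log2 fold change of -0.30 (SE 0.086, limma adjusted p = 0.00595).

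The dehydrogenases of the straight-chain spiral itself did not pass, and neither did ACADSB. ACADVL, the very long-chain enzyme, was the highest of the 35 per kilobase, with 99.1 ± 3.75 RPM per kilobase in knockdown and 91.1 ± 4.75 in control (SD, n = 3 each). It stood at 223.3, 227.2 and 240.0 RPM in knockdown, against 217.4, 218.7 and 198.9 RPM in control. These groups did not overlap, yet the log2 fold change of 0.12 (95% confidence interval -0.03 to 0.27) did not pass (limma adjusted p = 0.189). DLG4, which overlaps it on the opposite strand, averaged 9.05 RPM in knockdown and 3.74 RPM in control and rose. ACADM, the medium-chain enzyme, overlaps RABGGTB by 1383 bases on the same strand, which at 52.0 RPM in knockdown and 45.2 RPM in control was the more abundant, so its value is uncertain. It averaged 22.96 ± 0.536 RPM in knockdown and 23.03 ± 2.04 RPM in control, with a 95% confidence interval of -0.19 to 0.19 for the log2 fold change. The short-chain enzyme ACADS had a log2 fold change of 0.31 (95% confidence interval -0.03 to 0.66) and the short and branched-chain enzyme ACADSB of 0.06 (-0.14 to 0.25).

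The electron transfer flavoprotein is a dimer of ETFA and ETFB that collects electrons from these dehydrogenases, and ETFDH passes them to ubiquinone. Only ETFB passed. It stood at 69.2, 69.8 and 73.0 RPM in knockdown, against 59.9, 60.0 and 55.7 RPM in control, a log2 fold change of 0.27 (SE 0.0768, limma adjusted p = 0.00592). Its partner ETFA stood at 40.9, 32.7 and 34.7 RPM in knockdown, against 38.8, 38.9 and 36.7 RPM in control. Here knockdown replicate 4 was the highest of the 6 samples and the other 2 knockdown samples the lowest, and the log2 fold change came to -0.09 (95% confidence interval -0.27 to 0.10). The difference between the 2 subunits was not tested. ETFDH was low, at 2.58, 2.26 and 2.50 RPM in knockdown, against 2.87, 3.81 and 2.63 RPM in control, with a log2 fold change of -0.33 (95% confidence interval -0.73 to 0.07). Of the 10 tested genes that start within 5 Mb of ETFDH, 7 fell and none rose. PPID and C4orf46, which overlap ETFDH on the opposite strand, both fell. They averaged 22.3 and 14.4 RPM in knockdown, against 29.7 and 17.5 RPM in control. The value of ETFDH is therefore uncertain.

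The hydratase, hydroxyacyl-CoA dehydrogenase and thiolase steps for long chains are carried by the trifunctional protein. Of the 6 genes in this group 2 rose, both of them subunits of that protein, and none fell. The rises are 33.3%, against 22.6% of all genes tested, of which 19.2% fell. HADHA, which holds the hydratase and dehydrogenase, stood at 105.7, 108.7 and 116.6 RPM in knockdown, against 99.6, 100.2 and 89.9 RPM in control. HADHB, the thiolase, stood at 53.3, 52.6 and 58.6 RPM in knockdown, against 44.6, 49.1 and 43.3 RPM in control. In both genes knockdown replicate 6 was the highest sample and control replicate 6 the lowest. The log2 fold changes were small, 0.19 for HADHA (SE 0.0765, limma adjusted p = 0.0449) and 0.26 for HADHB (SE 0.0825, limma adjusted p = 0.0121). The call of HADHA was lost when any 1 of the 6 samples was left out, and that of HADHB without knockdown replicate 6 or control replicate 4. In the deposited coordinates the gene models of the pair share 1558 bases on opposite strands, whereas in RefSeq their starts lie apart. The libraries were strand-specific per the labels, but whether the authors counted by strand is not stated in the sources used here.

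The short-chain and medium-chain enzymes of the same steps did not pass. HADH, the hydroxyacyl-CoA dehydrogenase, averaged 31.9 ± 1.78 RPM in knockdown and 27.5 ± 1.98 RPM in control (SD, n = 3 each), with no overlap between groups and a log2 fold change of 0.22 (limma adjusted p = 0.0526). ACAA2, the medium-chain thiolase, averaged 16.4 ± 1.51 RPM in knockdown and 13.9 ± 0.472 RPM in control, also without overlap, with a log2 fold change of 0.24 (limma adjusted p = 0.0684). ACAT1, the acetoacetyl-CoA thiolase also used in ketone body metabolism, and ECHS1, the short-chain hydratase, had log2 fold changes of 0.08 (95% confidence interval -0.10 to 0.26) and -0.04 (-0.22 to 0.14).

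Chains with double bonds need auxiliary enzymes, and the largest fall of the 35 by log2 fold change was among them. ECI1, the mitochondrial enoyl-CoA isomerase, stood at 26.0, 26.0 and 24.2 RPM in knockdown, against 36.4, 36.3 and 32.2 RPM in control. The highest knockdown sample was well below the lowest control sample. The means were 25.4 ± 1.02 RPM in knockdown and 34.98 ± 2.37 RPM in control (SD, n = 3 each), giving a log2 fold change of -0.46 (SE 0.0881, limma adjusted p = 0.000177). ECI1 lies on chromosome 16 from 2289396 to 2302302 in the table's coordinates. The second isomerase, ECI2, which is found in peroxisomes and mitochondria, had a log2 fold change of -0.14 (95% confidence interval -0.34 to 0.06). The dienoyl-CoA reductase DECR1, at 36 to 83 reads per sample, had one of 0.00 with an interval of -0.46 to 0.46. NBN, which overlaps DECR1 on the opposite strand, averaged 26.9 RPM in knockdown and 33.8 RPM in control and fell. The value of DECR1 is therefore uncertain.

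In the peroxisomal branch 2 of 9 genes rose (22.2%) and 1 fell (11.1%), against 22.6% and 19.2% of all genes tested. ACAA1, the peroxisomal thiolase that ends each turn, stood at 28.0, 28.1 and 30.3 RPM in knockdown, against 20.4, 19.5 and 18.3 RPM in control. Its adjusted p was the smallest of the 35, with means of 28.8 ± 1.29 RPM in knockdown and 19.4 ± 1.02 RPM in control (SD, n = 3 each) and a log2 fold change of 0.57 (SE 0.0909, limma adjusted p = 1.99e-05). On the opposite strand ACAA1 overlaps DLEC1, which rose too but averaged 1.296 RPM in knockdown and 0.624 RPM in control. ACOX2, the oxidase of branched chains and bile acid intermediates, stood at 1.61, 1.87 and 1.83 RPM in knockdown, against 1.19, 0.901 and 0.850 RPM in control. That is only 19 to 48 reads per sample, and the log2 fold change came to 0.87 (SE 0.266, limma adjusted p = 0.0108). EHHADH, the L-bifunctional hydratase and dehydrogenase, stood at 13.2, 17.3 and 14.4 RPM in knockdown, against 19.9, 19.7 and 16.3 RPM in control. Its groups overlapped, and its log2 fold change of -0.32 (SE 0.113, limma adjusted p = 0.0242) lost the call without knockdown replicate 4, knockdown replicate 6, control replicate 4 or control replicate 5.

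The 6 peroxisomal genes that did not pass had log2 fold changes from -0.08 to 0.17. They were the branched-chain oxidase ACOX3 (-0.08), the D-bifunctional enzyme HSD17B4 (0.05), the thioesterase ACOT8 (0.07), the dienoyl-CoA reductase DECR2 (0.09), the enoyl-CoA reductase PECR (0.17) and SCP2 (0.17), whose long form is a branched-chain thiolase. On their own strands DECR2 overlaps NME4, which fell (log2 fold change -0.26, limma adjusted p = 0.019), and PECR overlaps MREG, which did not pass (-0.11), so both values are uncertain. Of these 6 genes, only SCP2 had groups that did not overlap. The mitochondrial thioesterase ACOT2, which releases free fatty acid from acyl-CoA, averaged 16.0 ± 0.512 RPM in knockdown and 18.1 ± 1.43 RPM in control, without overlap, and did not pass (log2 fold change -0.18, limma adjusted p = 0.157). Its near-identical neighbour ACOT1 rose, with a log2 fold change of 0.36 (limma adjusted p = 0.0322). How reads common to this pair were assigned is not given, so both values are uncertain.

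Over the 35 genes together the knockdown samples held 1119, 1124 and 1185 RPM and the control samples 1087, 1095 and 981 RPM. Per kilobase, ACADVL was followed in the control samples by HADHA (36.3 ± 1.86 RPM per kilobase in knockdown and 31.8 ± 1.91 in control) and by ECHS1 (25.9 ± 1.67 in knockdown and 26.6 ± 2.07 in control). ECI1 was the fourth in control, at 16.5 ± 0.665 RPM per kilobase in knockdown and 22.7 ± 1.54 in control, and its control level did not exceed that of HADHB, at 21.3 ± 1.41 in control, beyond their spread. The lowest were ETFDH, ACOX2 and CPT1C, the last at 0.28 RPM per kilobase in knockdown and 0.21 in control. These levels use the longest transcript of each gene, which may not be the one counted. It was far longer than the median coding transcript for ETFB (3551 against 900 bases) and CPT1A (5232 against 1499.5 bases). For HADHA the 2 lengths were close (3037 against 2982 bases). The order of the genes below ACADVL depends on this choice.

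Several of these genes lie where neighbouring genes moved the same way. The tested genes that start within 5 Mb were taken for each of the 35, and their median log2 fold change was noted. Around HADHA and HADHB, on chromosome 2 from 26413504 to 26513337, 60 of the 77 neighbours rose and none fell, with a median of 0.50, above the values of both genes. Around ACAA1, on chromosome 3 from 38144620 to 38178734, 28 of 53 neighbours rose and 1 fell, with a median of 0.32. Around ACOX2, on chromosome 3 from 58490863 to 58523047, 19 of 33 rose and 4 fell, with a median of 0.28. For the other 31 genes the neighbours' median lay between -0.29 and 0.11. It was 0.09 around CPT1B, 0.01 around CROT, -0.04 around CRAT, -0.09 around ACAD10, 0.06 around ETFB and 0.03 around ECI1.

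When the median deviation of these neighbours was taken off each gene in each sample before the fit, 13 of the 35 rose and 4 fell, against 22.1% and 21.9% of all genes tested. CPT1B, CRAT, CROT, ACAD10, ETFB and ACAA1 still rose, and ECI1 and ACAD9 still fell. HADHA and HADHB turned round, with values of -0.30 and -0.23 relative to their neighbours (limma adjusted p = 0.000171 and 0.00593). ACAA1 kept a value of 0.24 (limma adjusted p = 0.011), while ACAD8, ACOX2 and EHHADH no longer passed. ACADVL, ACADS, HADH, ACAA2, ACAT1, HSD17B4 and SCP2 passed as higher relative to the median of their neighbours. None of these 7 was called without the correction. The fit takes the neighbours' median as exact, so the spread among neighbours does not enter these p-values. With neighbours within 2 Mb, ACADS, ACAT1 and HSD17B4 did not pass (limma adjusted p = 0.052, 0.159 and 0.623). With those within 10 Mb, ACAD8 passed (limma adjusted p = 0.011), and so did CPT1A as higher (0.19, limma adjusted p = 0.0186). A difference in copy number between the groups was not tested.

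**Figure D3:**
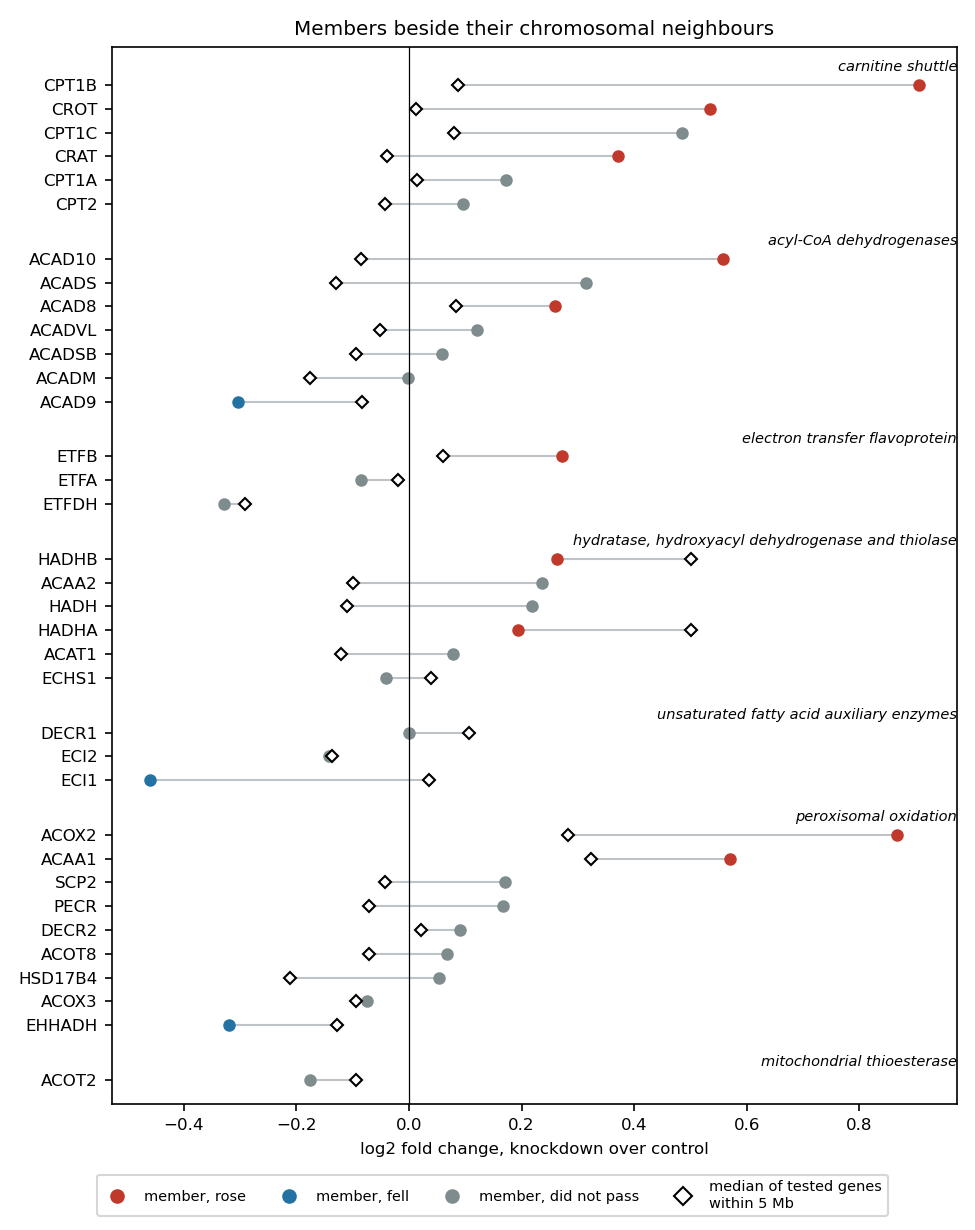
Log2 fold change, knockdown over control, of each of the 35 genes (filled points, coloured by call) and the median of the tested genes that start within 5 Mb of it (open diamonds). HADHA and HADHB lie left of a neighbour median of 0.50, ACAA1 and ACOX2 lie right of medians of 0.32 and 0.28, and CPT1B, CROT, CRAT, ACAD10 and ECI1 lie away from medians within 0.1 of 0.

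Other genes of fatty acid handling, were taken from 11 lists that hold 154 symbols beside the 35. Of 127 tested, 27 rose and 26 fell, which is 21.3% and 20.5%, against 22.6% and 19.2% of all genes tested. The uptake and activation list had 5 rises and 5 falls among 14 genes, or 35.7% each. DBI, which binds acyl-CoA in the cytosol, averaged 54.5 ± 3.71 RPM in knockdown and 34.4 ± 2.23 RPM in control (SD, n = 3 each), giving a log2 fold change of 0.66. Its 19 neighbours on chromosome 2 had a median of 0.60, and relative to them its value was 0.12 (limma adjusted p = 0.130). The fatty acid transport protein SLC27A5 (log2 fold change 0.87) and the acyl-CoA synthetase ACSL5 (0.58) rose as well, and the fatty acid-binding protein FABP5 fell (-0.60).

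Against 22.6% and 19.2% of all genes tested, 1 of 6 carnitine supply genes rose (16.7%) and none fell. It was SLC22A5, the carnitine importer of the plasma membrane, at 27.5, 33.2 and 31.4 RPM in knockdown, against 20.7, 19.8 and 17.8 RPM in control, with a log2 fold change of 0.66 (limma adjusted p = 6.48e-06). SLC25A20, the carnitine carrier of the inner membrane, had a log2 fold change of 0.06 (limma adjusted p = 0.831) and lies outside the rule for naming genes. Of 13 other mitochondrial enzymes, ECHDC2 (0.84), MCEE (0.69) and ACAD11 (0.46) rose (23.1%) and ECHDC1 (-0.23) fell (7.69%). Relative to their neighbours MCEE was at 0.22 (limma adjusted p = 0.318) and ECHDC1 at -0.16 (limma adjusted p = 0.066), and neither passed. In the list of flavin supply and electron transfer flavoprotein assembly 1 of 7 rose (14.3%) and 3 fell (42.9%). The mitochondrial folate and FAD carrier SLC25A32 averaged 20.1 ± 1.56 RPM in knockdown and 29.6 ± 1.35 RPM in control, a log2 fold change of -0.56 (limma adjusted p = 3.01e-05). The riboflavin kinase RFK (-0.30) and the flavoprotein regulator LYRM5 (-0.32) fell, and the riboflavin transporter SLC52A3 (0.59) rose. RFK no longer passed relative to its neighbours (-0.18, limma adjusted p = 0.0712).

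Of 19 other peroxisomal lipid enzymes 5 rose (26.3%) and 1 fell (5.26%), against 22.6% and 19.2% of all genes tested. The protease TYSND1 had a log2 fold change of 0.44, the lyase HACL1 of 0.55 and the tether ACBD5 of -0.47. Relative to its neighbours HACL1 was at -0.15 and did not pass. Of 17 peroxins, the genes of peroxisome assembly, 3 rose (17.6%) and 4 fell (23.5%). PEX6 (0.59), an ATPase that helps recycle the import receptor, was among the rises and that receptor, PEX5 (-0.41), among the falls. PEX13, of the import pore, rose by 0.38, and its value relative to neighbours was 0.02.

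Of 7 thioesterases ACOT11 (0.89) and ACOT1 rose (28.6%) and ACOT7 (-0.34) fell (14.3%), against 22.6% and 19.2% of all genes tested. The only change among 5 ketone body genes was a fall (20%) of BDH1 (-0.40), the mitochondrial hydroxybutyrate dehydrogenase. MGLL (-0.74), the monoglyceride lipase, and PLIN3 (-0.37), a lipid droplet coat protein, were the 2 of 9 lipolysis genes that fell (22.2%), and none rose.

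Among 26 regulators 5 rose (19.2%) and 6 fell (23.1%), against 22.6% and 19.2% of all genes tested. PPARG, the nuclear receptor of fat cells and colon epithelium, stood at 4.08, 4.42 and 4.20 RPM in knockdown, against 1.05, 0.948 and 0.510 RPM in control. All knockdown samples were far above all control samples, with a log2 fold change of 2.41 (SE 0.254, limma adjusted p = 5.08e-08). PPARG had only 12 to 110 reads per sample, so the size of its change is uncertain. It lies on chromosome 3 among 71 neighbours with a median of 0.73, and relative to them its value was 1.67 (limma adjusted p = 4.75e-05). ACACB, the acetyl-CoA carboxylase whose malonyl-CoA acts on the carnitine shuttle, averaged 13.1 ± 0.652 RPM in knockdown and 8.22 ± 1.14 RPM in control (SD, n = 3 each), giving a log2 fold change of 0.68 (limma adjusted p = 6.94e-05). The other acetyl-CoA carboxylase, ACACA, was more abundant, at 74.3 RPM in knockdown and 86.8 RPM in control. ACACA fell (log2 fold change -0.23, limma adjusted p = 0.0204) and is named outside the rule. HNF4A (0.69), a nuclear receptor of gut and liver, rose, and the coactivator PPARGC1B (-0.57) fell. PPARA, the receptor best known for driving these genes in liver, had a log2 fold change of 0.20 that did not pass (limma adjusted p = 0.230) and is named outside the rule. Of 9 PPAR target genes tested, which include CPT1A and ACADVL, 3 rose (33.3%) and 2 fell (22.2%). TXNIP (0.37) was among the rises, and UCP2 (-0.53) and PLIN2 (-0.40) were the falls.

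**Figure D4:**
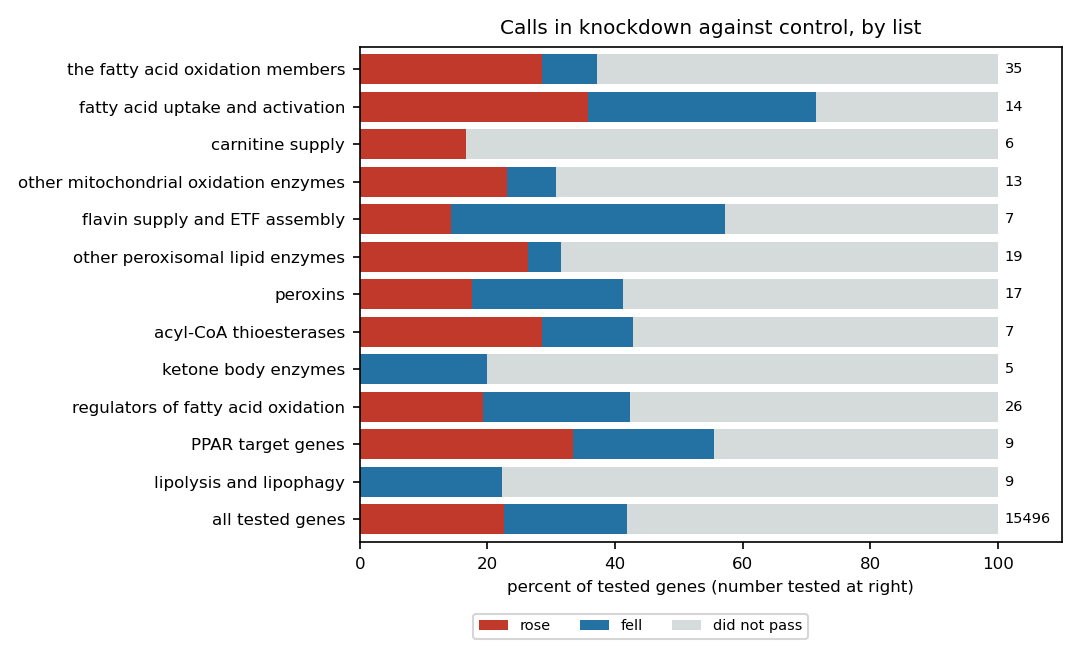
Percent of tested genes that rose, fell or did not pass in knockdown against control, for the 35 fatty acid oxidation genes, 11 lists of related genes and all tested genes, with the number tested at the right. The 35 genes show 28.6% rises and 8.57% falls, and all 15496 tested genes 22.6% and 19.2%.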

How the data were processed

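Strand-specific sequencing of total RNA was done on 6 samples, per the labels. The authors deposited 1 table of log2 values, which the labels do not explain. Read from the values, it holds the log2 of RPM plus an offset of 1e-04, and the depth follows from the step that 1 read makes. Partek, Bowtie and hg38 are named in the submitters' processing notes without versions or roles. The table's positions are not those of GRCh38 (largest end on chromosome 1 at 249214146, against 248937043 in GENCODE 29), so they are given as deposited. Between 52.0% and 63.4% of the higher values were within 0.02 of a whole read, so no count test was run.

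Each of the 22258 symbols was used once (1192 stood at several lines). The 15496 with a mean of at least 0.688 RPM, 1 in 1000000 of the reads in listed genes, were tested with limma 3.58.1 (R 4.3.3, eBayes with a trend), 3 knockdown against 3 control samples, two-sided, with no covariates. The fit was run on simulated data with independent noise for each gene. That simulation held no shift shared by a whole sample or by neighbouring genes, so it cannot speak to those. Changes are called at an adjusted p below 0.05. Means carry the SD, and log2 fold changes limma's standard error or 95% interval. Floors cover counting error only.

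The genes and lists were chosen with earlier results of these data known. The rule for names takes ALDH1B1, all 35 genes, up to 4 changed genes per list by adjusted p, and the 3 highest of each marker list. Of 204 list entries 162 were matched by symbol. Of the genes that overlap a member, those named are named for that reason, and others are not reported here. Alternatives were 2 offsets, 2 filters, 4 scalings, 2 variance priors, the replicate block, leaving out each sample, and the neighbour correction at 5 Mb, with 2 and 10 Mb added after seeing the data. Figures used matplotlib 3.10.9. Some genes that the rule for names allows are not reported here.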

Additional observations from a re-analysis of the deposited data

How the results depend on the processing

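Under 20 alternatives, 6 of which left out 1 sample, CPT1B, CRAT, CROT, ACAD10, ETFB, ECI1 and ACAA1 kept their direction and their call. The genes that rose numbered 7 without a variance trend (7 of 35, against 19.3% of all genes tested) and 15 when scaled to listed genes, to nuclear genes or with the 10 Mb neighbour correction (42.9%, against 25.5%, 29.3% and 22.3%), the extremes, and 7 to 10 with 1 sample left out. Those that fell numbered 2 to 5, and 2 to 4 with 1 sample left out. Under quantile normalization 5 fell, against 3, which is 14.3% against 25.0% of all genes tested. Over all genes tested, 4929 to 6795 changed with 1 sample left out. With the replicate number as a block, 8 of the 35 rose (22.9%) and 3 fell (8.57%), against 20.5% and 14.9% of all genes tested. In that fit 5481 of all genes changed. Samples with the same number did not deviate together (r = -0.05, -0.07 and -0.13), and 0 of 6 correlated best with its own number. Whether the numbers mark matched pairs is not stated in the sources used here, and these correlations cannot exclude it. Under scaling to listed genes, to nuclear genes, by median of ratios or by quantiles, CPT1A and HADH passed as higher in all 4, ACADVL and SCP2 in all but median of ratios, and ACAA2 in the first 2. ACOT2 passed as lower in the last 2 and ETFDH by quantiles (-0.55). HADH also passed with the stricter filter, the robust fit and without control replicate 4, ACADS without knockdown replicate 5, ACAA2 without knockdown replicate 4 or control replicate 6, ECI2 (as lower) without control replicate 6, and PECR at 2 Mb.

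Direction reversed mostly for genes near 0. DECR1 gave 0.00025 with an offset of 0.1, 0.0043 with 1 and 0.052 scaled to nuclear genes, where ACADM gave 0.052 and ECHS1 0.013, and DECR2 gave -0.061 under quantile normalization. With the neighbour correction at 5, 2 and 10 Mb, HADHA gave -0.30, -0.26 and -0.28, HADHB -0.23, -0.20 and -0.21, and ACADM 0.17, 0.15 and 0.15. ACOX3 gave 0.017 at 5 Mb and 0.00020 at 2 Mb, ETFDH 0.051 at 2 Mb, DECR1 0.26 at 2 Mb and 0.032 at 10 Mb, and ECHS1 0.035 at 10 Mb. Apart from the correction's own subtraction of the neighbours, the cause was not tested. With 1 sample left out, ACADM ranged from -0.071 to 0.057, DECR1 from -0.21 to 0.22, ECHS1 from -0.11 to 0.0013, CPT2 from -0.0096 to 0.18 and HSD17B4 from -0.025 to 0.10. Of the 13 calls, those lost elsewhere were ACAD8, ACAD9 (at 2 Mb only), HADHA, HADHB, ACOX2 and EHHADH. Depth limits CPT1C, ACOX2, DECR1 and ETFDH, at under 100 reads per sample.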
